A study of Mus musculus with 64 samples.

Results

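The libraries described here are those of resting Ahr-/- bone marrow-derived macrophages (BMMs) at the later and the earlier of the study's time points, 20 h and 3 h. They were chosen by their titles, which name the knockout, no ligand, no activation and the time, and are 8 of the 64 libraries of the series, 4 at each time. Ahr is the gene of the aryl hydrocarbon receptor (AhR), a ligand-activated transcription factor that senses polycyclic aromatic compounds and dietary indoles. The comparison asks what changes with time in culture alone in cells without AhR.

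The series profiled mRNA of BMMs from Ahr+/+ and Ahr-/- mice that were exposed to an AhR ligand or to the solvent and then activated with heat-killed Salmonella or not. All 8 libraries come from C57BL/6 Ahr-/- mice that had been crossed back to the C57BL/6JRj strain of the controls and were 8 to 12 weeks old. Bone marrow of 4 mice per genotype was grown into macrophages with fibroblast supernatant rich in macrophage colony-stimulating factor (M-CSF), scraped off on day 6 and checked for the surface markers CD11b and F4/80. The cells were then cultured in medium with 0.01% DMSO for 6 h, received no bacteria, and were lysed 3 h or 20 h later, after 9 h or 26 h in all. The medium of this last step, as the methods list it, contained serum but none of the M-CSF supernatant. The deletion was present in every cell of the mouse from birth, so the cells also differentiated without AhR. The 8 libraries held 12152496 to 39798286 counts on genes. Nothing in the labels says that libraries of different times with the same number share a mouse.

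Macrophages grown from bone marrow depend on M-CSF for survival and division, and move between a resting state that clears debris and lipids and an activated state that makes cytokines and antimicrobial products. Scraping, replating and fresh serum disturb such cells for hours. Serum also sets the molecular clock, a loop in which CLOCK and BMAL1 drive genes that later repress them. Macrophages in culture keep a low level of type I interferon signalling that holds many antiviral genes on without any infection.

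Over 17 h of resting culture, nearly all mitosis genes tested rose in the knockout, as did the C1q genes and the mannose receptor gene. Clock genes were mixed, with 4 of 20 higher, Dbp and Nr1d1 among them, and 2 lower. In further lists a minority of the genes passed the test as lower and none as higher. These were 20 of 47 interferon-stimulated genes and 12 of 32 genes of the unfolded protein and amino acid response. The others were 11 of 25 NRF2 antioxidant genes and 9 of 24 sterol genes. In the edgeR fit of these 8 libraries alone the counts were 0 of 46, 4 of 27, 6 of 25 and 2 of 24. Of 14537 genes tested, 1015 (6.98%) passed an adjusted p below 0.01 in edgeR's quasi-likelihood test, which is called a change here. Higher at 20 h were 512 genes (3.52%) and lower were 503 (3.46%). A fold of at least 2 was reached by 301 of the called genes (2.07% of those tested), 198 (1.36%) higher and 103 (0.709%) lower. The median log2 fold change was 0.84 in size among genes that rose and 0.53 among those that fell, and it was 0.0024 over all genes tested. The libraries of the 2 times did not overlap for 1801 genes (12.4%). Genes named by rule were picked among called genes without overlap, so their lack of overlap was fixed by that choice and adds no support. Ahr, Ahrr and the Cyp1 genes were named in any case. The counts of called genes in each list below stand beside the shares over all genes tested, 3.52% higher and 3.46% lower.

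The number of changed genes depended on the libraries that entered the fit. It was 1015 with all 64 libraries, and 157 with edgeR on these 8 alone, where the filter and the scaling were also set anew and 13175 genes were tested. DESeq2 on the same 8 libraries called 679. Unless another fit is named, edgeR's SEs and adjusted p-values for single genes use the spread estimated over all 64 libraries. They are thus not the certainty that 4 against 4 libraries give alone. The smallest adjusted p of any gene in edgeR's quasi-likelihood test was 2.34e-16 with all 64 libraries and 0.000627 with these 8 alone. With DESeq2 on these 8 it was 1.46e-35, so this value also depended on the method.

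Replicate 2 at 3 h and replicates 1 and 2 at 20 h lay apart from the other 5 libraries on the first principal component, which held 40.2% of the variance. They also had the lowest share of counts on mitochondrial genes, 0.795%, 1.15% and 0.902% against 1.30% to 1.88% in the other libraries. Without these 3 libraries, 307 genes were called, 185 higher and 122 lower. The library identifiers form series, and 3 h replicates 2 to 4 belong to another series than 3 h replicate 1 and all 20 h libraries. With the series as a covariate 403 genes were called, and the part of the series in the results was not tested beyond this. In bulk RNA, fewer cells of a type and less RNA per cell cannot be told apart.

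Levels are given as CPM, the count of a gene relative to the total count of its library on the usual fixed scale, adjusted by the TMM factors of edgeR. Macrophage markers were high at both times. Csf1r, the M-CSF receptor, lay between 1842 and 2377 CPM at 3 h and between 2062 and 2441 CPM at 20 h. Adgre1, which encodes F4/80, was 1001, 908, 1019 and 1093 CPM at 3 h and 1108, 1165, 1440 and 1553 CPM at 20 h. All 20 h values of Adgre1 lay above all 3 h values, with a log2 fold change of 0.39 (SE 0.07, adjusted p = 8.15e-05, edgeR's quasi-likelihood test). Of the 9 macrophage markers 1 rose, Adgre1, and 1 fell, Cd14, the co-receptor for bacterial lipopolysaccharide, by 0.50 on the log2 scale. The call of Cd14 was lost without the 3 libraries that stand apart, and without 20 h replicate 1, 20 h replicate 2 or 3 h replicate 2 alone. In the edgeR fit of these 8 libraries alone 0 of the 9 markers were called, Adgre1 included.

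Ahr itself was counted in all 8 libraries, at 9.47, 6.62, 5.32 and 5.11 CPM at 3 h and 6.30, 5.44, 8.80 and 8.62 CPM at 20 h. The times overlapped, with a fitted change of 0.15 on the log2 scale (SE 0.20, adjusted p = 0.721, edgeR's quasi-likelihood test). In the resting wild type Ahr lay between 1.09 and 4.67 CPM at 3 h and between 2.62 and 4.72 CPM at 20 h, below the knockout at each time. The count sums over all exons of Ahr (GRCm38, chromosome 12, 35497974 to 35535038), including those outside the deletion, so it neither tests the genotype label nor measures AhR protein. Ahrr, the AhR repressor and a target of the receptor, was 2.15, 1.81, 2.099 and 1.81 CPM at 3 h and 2.47, 2.23, 3.09 and 3.35 CPM at 20 h. The 20 h values of Ahrr all lay above the 3 h values, but the log2 fold change of 0.52 did not pass the test (SE 0.20, adjusted p = 0.0759, edgeR). In the wild type at 20 h Ahrr ranged from 4.37 to 5.91 CPM. The classical AhR targets were near 0, with totals over the 4 libraries of 0 counts for Cyp1a1 and Cyp1a2 and 2 for Cyp1b1 at 3 h, and of 1, 0 and 8 counts at 20 h.

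Of the 8 tested genes in the list of AhR targets and partners 3 changed. Nqo1, an enzyme that detoxifies quinones and answers to NRF2 as well as AhR, fell from 4.28, 4.70, 4.93 and 6.28 CPM to 1.45, 1.55, 2.40 and 1.92 CPM. Arnt, the partner with which AhR binds DNA, fell by 0.31 on the log2 scale (SE 0.06), and Lpcat2, a phospholipid-remodelling enzyme, rose by 0.46 (SE 0.11). None of the 8 was called without the 3 libraries that stand apart.

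**Figure D1:**
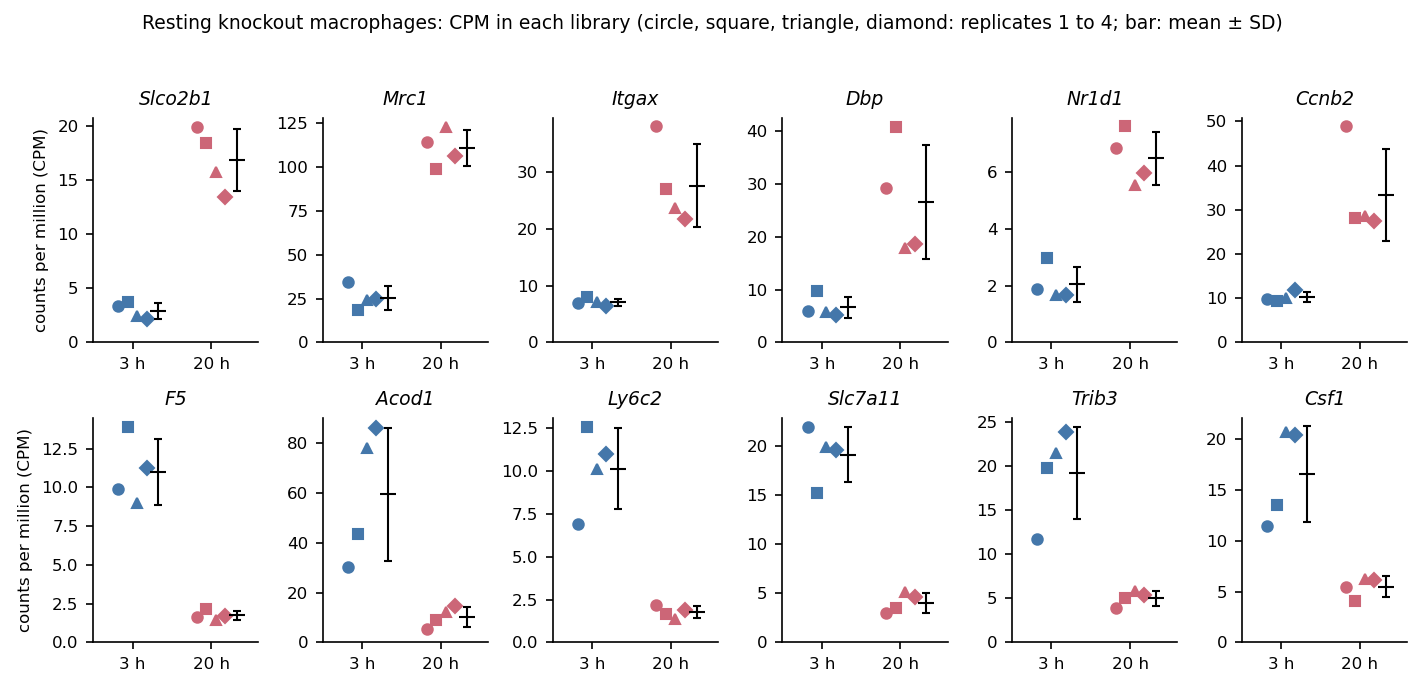
CPM of 12 genes in each resting knockout library at 3 h and 20 h. Marker shapes are replicates 1 to 4, the black bars give the mean ± SD of 4 libraries and every axis starts at 0. The 12 genes were picked among genes without overlap between the times. By that choice their 20 h libraries lie wholly above or wholly below the 3 h libraries.

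Mitosis genes had the highest median of the 29 pathway lists. Of 41 genes of the mitosis list 40 rose and none fell, with a median log2 fold change of 1.20 against 0.0024 over all genes. Pttg1, which encodes securin, was the exception at -0.06. Ccnb2, a cyclin that drives entry into mitosis, was 9.82, 9.40, 10.1 and 11.8 CPM at 3 h and 48.9, 28.1, 28.7 and 27.6 CPM at 20 h. Its 20 h libraries lay far above the 3 h libraries, and replicate 1 lay highest, with a 3.25-fold rise (log2 fold change 1.70, SE 0.23, adjusted p = 1.78e-07, edgeR's quasi-likelihood test). Ube2c, the ubiquitin-conjugating enzyme of the anaphase-promoting complex, rose from between 8.996 and 11.8 CPM to between 21.5 and 52.6 CPM. Kif23, a motor of the dividing cell, and Cenpf, a kinetochore protein, each rose 3.03-fold. Pimreg and Knstrn, also genes of dividing cells, were among the 10 largest rises of all genes at 1.70 and 1.68. Mki67, the gene of the proliferation marker Ki-67, was 83.7, 58.6, 71.3 and 75.9 CPM at 3 h and 267, 123, 177 and 152 CPM at 20 h.

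Genes of DNA replication moved less. Of 54 genes 10 rose and none fell, and the median was 0.42, with 51 of 54 estimates above 0. Tk1, thymidine kinase, rose from 16.7, 15.8, 17.6 and 20.5 CPM to 55.5, 35.5, 35.5 and 33.8 CPM (log2 fold change 1.19, SE 0.18, adjusted p = 1.59e-06, edgeR). Rrm2, the regulated subunit of ribonucleotide reductase, rose by 0.88, Ccne1, the cyclin of S-phase entry, by 0.84, and Tyms, thymidylate synthase, by 0.81. Replicate 1 at 20 h was the highest library for Tk1, Rrm2, Ccne1 and Tyms, and without it 2 of 54 replication genes and 35 of 41 mitosis genes were called. Without the 3 libraries that stand apart, 31 mitosis genes and 2 replication genes were called, and in the edgeR fit of these 8 libraries alone 20 and 1.

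The promoters of 2 mitosis genes are shown because they hold, close together, the letters TTTGAA of the cell cycle genes homology region and the CCAAT box, both searched on both strands. The stretches are the 120 bases before the transcription start in RefSeq on GRCm38.p6, with the motif letters in capitals. Cdc20, the activator of the anaphase-promoting complex, lies on the minus strand (chr4:118437344-118437463) and rose by 1.47 on the log2 scale. Prc1, which bundles the microtubules of the central spindle, lies on the plus strand (chr7:80294356-80294475) and rose by 1.41.
Cdc20: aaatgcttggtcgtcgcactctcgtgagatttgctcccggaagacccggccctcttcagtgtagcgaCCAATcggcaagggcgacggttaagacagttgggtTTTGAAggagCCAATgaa
Prc1: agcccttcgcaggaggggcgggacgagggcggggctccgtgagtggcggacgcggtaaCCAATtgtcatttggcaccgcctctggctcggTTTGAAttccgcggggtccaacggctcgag
A window of 250 bases before to 50 after the start was at hand for 35 of 41 mitosis genes and for 10014 of the 14537 genes tested. TTTGAA was found in 25 of the 35 (71.4%) and in 14.7% of the 10014, and CCAAT in 26 (74.3%) and 43.0%. A match describes the letters in the window and is not evidence of a bound site.

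**Figure D2:**
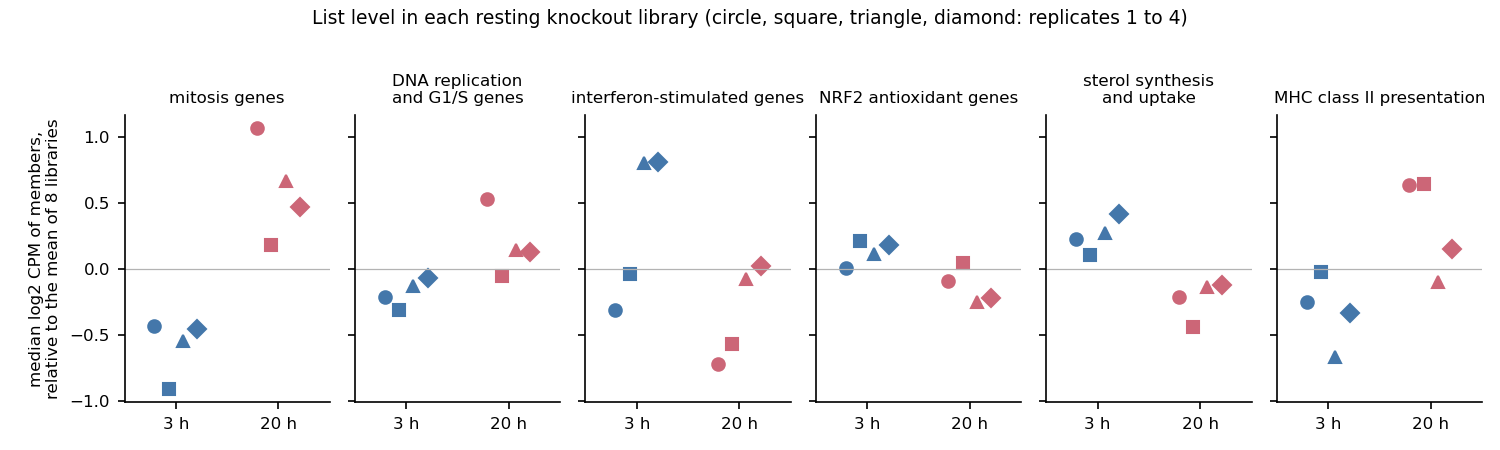
Level of 6 gene lists in each resting knockout library, as the median over the members of log2 CPM relative to the mean of the 8 libraries. Marker shapes are replicates 1 to 4. Mitosis, replication and sterol levels do not overlap between the times, while interferon-stimulated genes are higher in replicates 3 and 4 than in 1 and 2 at both times.

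Clock genes changed in both directions. Of 20 tested genes 4 rose and 2 fell, and the median was -0.05. Those that rose encode output factors of the clock, a period protein and a repressor of Arntl. Dbp, a transcription factor whose level swings widely over the day, was 5.92, 9.67, 5.81 and 5.24 CPM at 3 h and 29.3, 40.8, 17.9 and 18.6 CPM at 20 h, a 3.98-fold rise (log2 fold change 1.99, SE 0.22, adjusted p = 2.98e-09, edgeR's quasi-likelihood test). Nr1d1, which encodes the repressor REV-ERB-alpha, rose 3.15-fold, from 1.87, 2.97, 1.67 and 1.67 CPM to 6.83, 7.61, 5.53 and 5.96 CPM. Per3, a period gene, rose by 0.98 on the log2 scale and Tef, a factor related to Dbp, by 0.68. No 20 h library of Dbp, Nr1d1, Per3 or Tef overlapped a 3 h library.

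The 2 clock genes that fell were Nfil3 and Cry1. Nfil3, which competes with Dbp and Tef for the same DNA sites, fell by 0.91 (SE 0.17), from between 16.04 and 28.4 CPM to between 10.1 and 13.2 CPM. Cry1, a repressor of CLOCK and BMAL1, was 8.58, 9.29, 9.92 and 9.44 CPM at 3 h and 5.87, 6.43, 5.74 and 5.88 CPM at 20 h. Clock itself was at -0.31 (adjusted p = 0.416) and Arntl, the gene of BMAL1, at -0.25 (adjusted p = 0.198, both edgeR). Only 2 times were sampled, so a phase cannot be read from these values.

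Tef and Cry1 are shown because the same E-box letters, CACGTG, the site of CLOCK and BMAL1, stand before a gene that rose and a gene that fell. The stretch of Tef is on the plus strand (chr15:81802489-81802608), 184 to 65 bases before the start, and that of Cry1 on the minus strand (chr10:85185055-85185174), 120 to 1 bases before it, both from RefSeq on GRCm38.p6 with the E-box in capitals.
Tef: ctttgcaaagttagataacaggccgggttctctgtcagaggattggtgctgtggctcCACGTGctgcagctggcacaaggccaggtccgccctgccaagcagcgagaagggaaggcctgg
Cry1: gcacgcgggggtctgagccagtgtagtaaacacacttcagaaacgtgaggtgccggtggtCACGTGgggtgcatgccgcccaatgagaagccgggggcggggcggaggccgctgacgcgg
CACGTG, which reads the same on both strands, was in the windows of 5 of 16 clock genes (31.2%) and of 11.7% of all genes tested with a window.

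Receptors and carriers of macrophages were among the largest rises. Slco2b1, an organic anion transporter of resident macrophages, had the largest rise of the genes with a mean of at least 5 CPM, 5.77-fold, from 3.33, 3.72, 2.40 and 2.17 CPM to 19.9, 18.4, 15.8 and 13.4 CPM (log2 fold change 2.53, SE 0.26, adjusted p = 3.49e-09, edgeR's quasi-likelihood test). Mrc1, the mannose receptor CD206, rose 4.34-fold, from 34.7, 18.3, 24.5 and 24.6 CPM to 114, 99.1, 123 and 106 CPM. In both genes every 20 h library lay above every 3 h library, by a wide margin. Itgax, the integrin CD11c, rose 3.88-fold, from between 6.51 and 7.97 CPM to between 21.7 and 38.1 CPM. Ms4a4a, a tetraspan membrane protein of macrophages, rose by 1.62 (SE 0.18) and Itga9, an integrin subunit, by 1.69 (SE 0.22). Clec10a, a lectin for galactose-type sugars, rose 2.43-fold.

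Among scavenger and C-type lectin receptors 3 of 17 rose and 2 fell, with a median of 0.10. Besides Mrc1 and Clec10a the third to rise was Stab1, the scavenger receptor stabilin-1, at 0.60. Those that fell were Msr1, the class A scavenger receptor, at -0.48 and Scarb1, a receptor for high-density lipoprotein, at -0.36. Both of these calls were lost without 20 h replicate 2, and without the 3 libraries that stand apart 1 gene of the list was called higher and 0 lower. Marco, a scavenger receptor for bacteria, lay at -1.39 and just missed the threshold (adjusted p = 0.0107, edgeR).

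Complement genes were also mixed, with 5 of 18 higher, 2 lower and a median of 0.37. C1qa, C1qb and C1qc encode the chains of C1q, which opens the classical pathway and tags dying cells. C1qa was 272.5, 429.5, 323 and 337.5 CPM at 3 h and 752, 966, 557 and 586 CPM at 20 h (log2 fold change 1.07, SE 0.16, adjusted p = 2.99e-06, edgeR). C1qb rose by 0.83 and C1qc by 0.81. Cd59a, which blocks the membrane attack complex, rose by 0.72, and the fifth complement gene that rose was Itgax, a chain of complement receptor 4. C3, the central component of the cascade, fell by 0.70, from between 136.5 and 239 CPM to between 95.1 and 135 CPM, and Cfb, factor B of the alternative pathway, fell by 1.44 at under 2 CPM with overlap between the times.

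Apoe, which carries lipid out of macrophages, was the only 1 of 20 genes of the LXR and lipid list to rise, at 1.03 (SE 0.27, adjusted p = 0.00590, edgeR). Of all genes tested 3.52% were called higher. Apoe was 1706, 3343, 1818 and 1607 CPM at 3 h and 4581, 7068, 2972 and 2741 CPM at 20 h, so that 3 h replicate 2 lay above 20 h replicates 3 and 4. The C1q genes and Apoe were highest at each time in replicates that stand apart. Without the 3 libraries that stand apart, 4 complement genes and no lipid gene were called as higher, and no complement gene as lower.

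Atp6v0d2, a proton pump subunit of macrophages and osteoclasts, rose from 34.9, 19.1, 36.4 and 35.3 CPM to 89.3, 69.6, 85.6 and 74.1 CPM. It was the only 1 of 43 lysosome genes to rise, and 5 fell by 0.25 to 0.42, among them Npc1, which moves cholesterol out of lysosomes. Leaving out the 3 libraries that stand apart gave 0 lysosome genes called higher and 1 lower, and without 3 h replicate 3 there were 3 lower. Slc40a1, the iron exporter ferroportin, rose by 0.69 and Cp, ceruloplasmin, which oxidises the exported iron, by 1.03. These were 2 of 13 iron genes, and none fell. The counts of lysosome and iron genes stand beside 3.52% of all genes tested called higher and 3.46% lower. The call of Slc40a1 was lost without 20 h replicate 3, and without 3 h replicate 2, 3 or 4 alone. Iron genes called were 1 without the 3 libraries that stand apart and 0 in the edgeR fit of these 8 libraries alone.

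Ly6c2, a marker of inflammatory monocytes, fell 5.68-fold, from 6.91, 12.6, 10.1 and 11.0 CPM to 2.194, 1.67, 1.36 and 1.88 CPM (log2 fold change -2.51, SE 0.31, adjusted p = 2.51e-08, edgeR). Of the 8 monocyte markers 2 fell, Ly6c2 and Nr4a1, and none rose. Ccr2, the chemokine receptor of these monocytes, was at -0.67 (adjusted p = 0.161). F5, coagulation factor V, fell most among genes with a mean of at least 5 CPM, 6.44-fold, from 9.88, 13.9, 8.97 and 11.3 CPM to 1.64, 2.17, 1.45 and 1.69 CPM. Hp, haptoglobin, which binds free haemoglobin, fell by 1.73 and Gprc5b, an orphan receptor, by 1.72.

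Lineage factors moved in both directions, with 2 of 24 genes of the M-CSF axis higher and 2 lower. Of all genes tested 3.52% were called higher and 3.46% lower. Maf, a transcription factor of differentiated macrophages, rose by 0.78, with overlap between the times. Id3, an inhibitor of E-protein transcription factors, fell from 14.6, 25.4, 13.5 and 15.4 CPM to 4.23, 7.05, 4.63 and 5.71 CPM. Csf2rb2, a chain of the IL-3 receptor, fell by 0.33, and its close relative Csf2rb was at -0.35 and just missed the threshold (adjusted p = 0.0135, edgeR), and how reads were divided between the pair is uncertain. This list had 1 gene called higher and 0 lower without the 3 libraries that stand apart.

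The 10 genes of MHC class II presentation had a median of 0.66, and 9 of 10 estimates lay above 0, but none was called. Ciita, the master regulator of class II genes, lay at 0.19, 0.08, 0.09 and 0.09 CPM at 3 h and 0.40, 0.56, 0.37 and 0.44 CPM at 20 h (adjusted p = 0.0107, edgeR). H2-Aa, a class II chain, lay between 4.05 and 7.00 CPM at 3 h and between 7.42 and 11.0 CPM at 20 h (adjusted p = 0.0383). Both genes were thus without overlap between the times and above the threshold of the test.

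**Figure D3:**
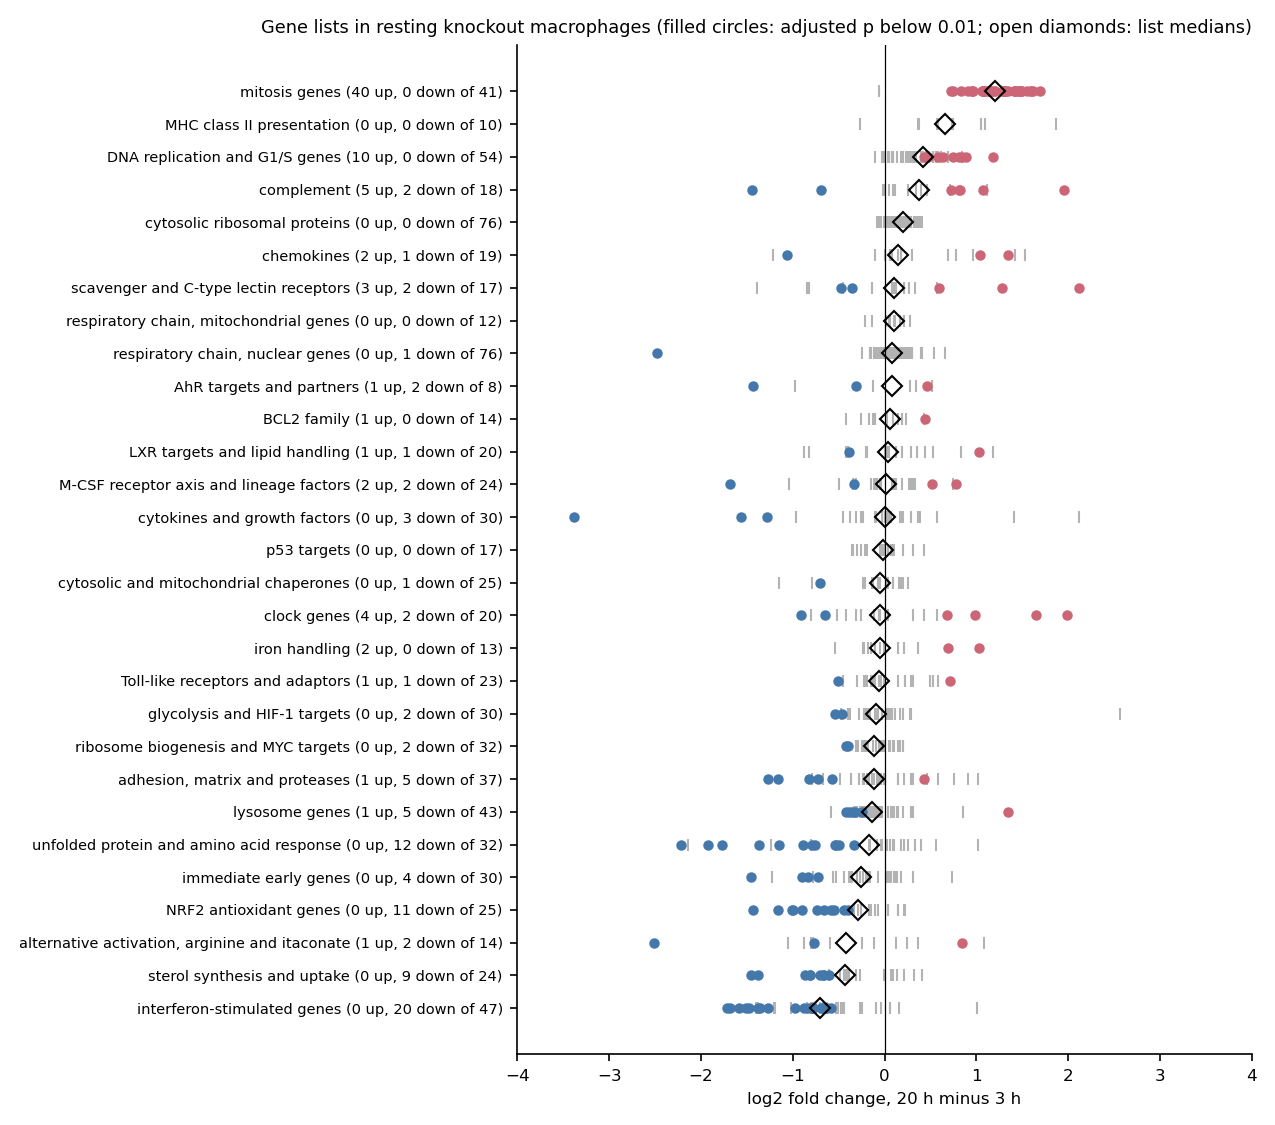
Log2 fold change, 20 h minus 3 h, of the tested members of 29 gene lists in resting knockout BMMs. Filled circles passed the test, grey ticks did not, and open diamonds are list medians, from 1.20 for mitosis genes to -0.70 for interferon-stimulated genes.

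Many interferon-stimulated genes fell. Of 47 genes 20 fell and none rose, with a median log2 fold change of -0.70, the lowest of the 29 pathway lists. Irf7, the factor that amplifies type I interferon, was 56.5, 98.5, 270 and 284.5 CPM at 3 h and 25.8, 38.3, 73.2 and 82.8 CPM at 20 h. Ifit1, which binds viral RNA that lacks the host cap, was 12.3, 14.6, 47.1 and 49.9 CPM at 3 h and 4.51, 4.08, 13.3 and 14.7 CPM at 20 h. In each gene replicates 3 and 4 lay above replicates 1 and 2 at either time, so that the times overlapped. On the log2 scale Irf7 changed by -1.68 (SE 0.27, adjusted p = 7.85e-06) and Ifit1 by -1.72 (SE 0.38, adjusted p = 0.000903, both edgeR's quasi-likelihood test). Isg15, a ubiquitin-like protein, fell by 1.37 and Usp18, which removes it and dampens the interferon receptor, by 1.36.

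Of the 47 interferon genes 38 (80.9%) were higher in both of replicates 3 and 4 than in both of replicates 1 and 2 at 3 h and again at 20 h, against 5.51% of all genes tested. Libraries 3 and 4 were also the closest pair of libraries at each time. The fibroblast genes Col1a1 and Col1a2 followed the same split at low level, with Col1a1 at 0.03, 0.04, 1.31 and 1.13 CPM at 3 h and 0.43, 0.43, 3.23 and 3.54 CPM at 20 h. None of the 6 tested fibroblast markers was called, their summed level lay between 1.39 and 4.84 CPM at 3 h and between 2.54 and 11.4 CPM at 20 h, and their part in the interferon result was not tested. The number of interferon genes called varied with the libraries used, from 9 without 3 h replicate 3 to 26 of 47 over the 8 fits that each left out 1 library. It was 6 without the 3 libraries that stand apart, and 0 of 46 tested in the edgeR fit of these 8 libraries alone, where the median was -0.74.

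The promoter of Ifit1 is shown for the interferon-stimulated response element, searched on both strands as GAAA, any 2 bases and GAAA again, and set in capitals. Its stretch is on the plus strand (chr19:34640739-34640858), 150 to 31 bases before the start in RefSeq on GRCm38.p6, and holds 2 matches in the reverse reading.
Ifit1: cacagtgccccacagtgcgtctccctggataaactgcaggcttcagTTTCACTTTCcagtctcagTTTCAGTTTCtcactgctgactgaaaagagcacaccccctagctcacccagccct
Windows were at hand for 35 of the 47 interferon genes, too few for a share over the list, and 4.04% of all genes tested with a window hold these letters.

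Several products of activated macrophages fell. Acod1, which makes the antimicrobial metabolite itaconate, fell 5.69-fold, from 30.4, 43.6, 78.3 and 86.0 CPM to 5.44, 8.97, 12.3 and 14.7 CPM (log2 fold change -2.51, SE 0.21, adjusted p = 5.27e-13, edgeR's quasi-likelihood test). Csf1, the gene of M-CSF itself, fell 2.97-fold, from 11.5, 13.5, 20.7 and 20.4 CPM to 5.44, 4.02, 6.27 and 6.13 CPM. In both genes every 20 h library lay below every 3 h library. Il6, an inflammatory cytokine, was counted at 0.48, 0.34, 0.37 and 0.77 CPM at 3 h and was at 0 in 2 of the 4 libraries at 20 h. Csf1, Il6 and Gdf15, a stress cytokine, were the 3 of 30 cytokine genes that fell, none rose, and the median was 0. Over all genes tested 3.46% were called lower, so these 3 are few and are not read as a fall of the list. Il6 had at most 17 counts in a library, and its call was lost without 20 h replicate 3 or without 3 h replicate 4. Only 1 cytokine gene was called without the 3 libraries that stand apart, and 1 with the identifier series as a covariate. Chil3, a chitinase-like protein of alternative activation, fell by 0.77, and Ptgs1, cyclooxygenase-1, rose by 0.85. Both calls were lost with the identifier series as a covariate. That of Chil3 was also lost without 20 h replicate 3, or without 3 h replicate 3 or 4 alone. That of Ptgs1 was lost without the 3 libraries that stand apart, and without 20 h replicate 2 or 3 h replicate 3 alone.

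Chemokines divided into 2 that rose and 1 that fell of 19, beside 3.52% and 3.46% of all genes tested. Ccl6 and Ccl9, chemokines of the CC type made by resting myeloid cells, rose. Ccl6 was 125, 101, 91.0 and 91.9 CPM at 3 h and 293, 288.5, 242 and 218 CPM at 20 h (log2 fold change 1.35, SE 0.12, adjusted p = 4.34e-12, edgeR). Ccl9 rose by 1.04, and Ccl5, a chemokine induced by interferon and NF-kappaB, fell by 1.07 with overlap between the times. Without the 3 libraries that stand apart 2 chemokines were called higher and 0 lower. The same counts came with the identifier series as a covariate and in the edgeR fit of these 8 libraries alone.

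Immediate early genes, which answer to serum and stress within minutes, were lower in 4 of 30 cases and higher in none. Nr4a1, an orphan nuclear receptor, fell by 1.45, from 55.7, 72.4, 34.6 and 30.8 CPM to 15.2, 15.7, 20.0 and 19.6 CPM, Klf4 by 0.90, Fosl2 by 0.84 and Dusp4 by 0.72. Replicates 1 and 2 of Nr4a1 were the highest libraries at 3 h and the lowest at 20 h. Without the 3 libraries that stand apart none of the immediate early genes was called.

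The MHC class I genes H2-Q6 and H2-Q7 were among the 10 largest falls. H2-Q6 fell from 19.2, 35.5, 39.3 and 40.4 CPM to 3.62, 4.82, 6.52 and 7.69 CPM, and H2-Q7 from 8.46, 20.0, 18.9 and 18.8 CPM to 3.03, 5.94, 5.14 and 5.18 CPM. The 2 genes are nearly identical in sequence, so how their reads were divided is uncertain.

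**Figure D4:**
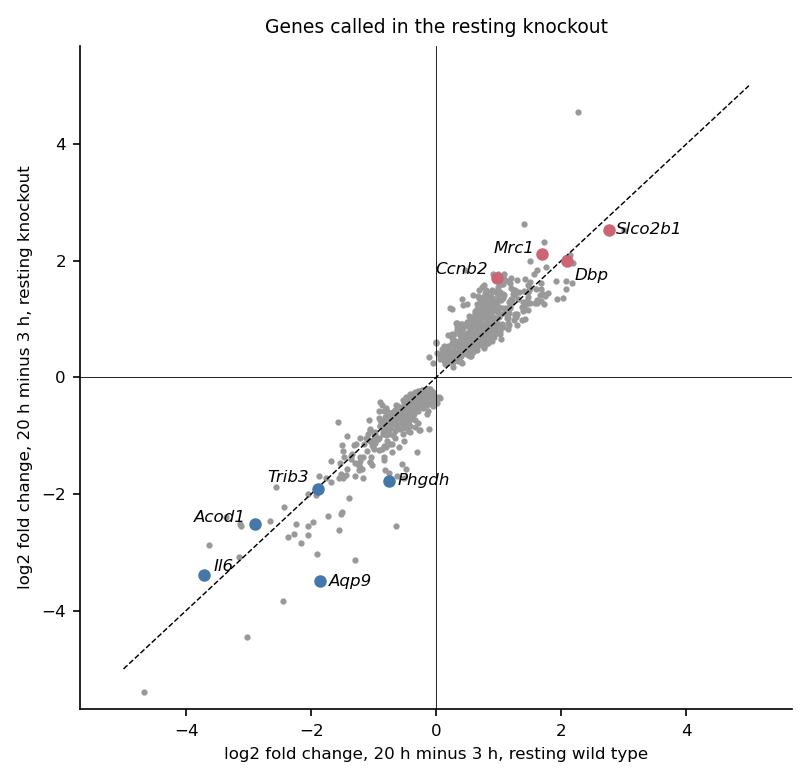
Log2 fold change, 20 h minus 3 h, of the 1015 genes called in the resting knockout, in the knockout (vertical axis) against the resting wild type (horizontal axis). The dashed line marks equal change, and 9 genes are named. All but 6 genes have the same sign in both genotypes.

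Genes of the amino acid response fell, while chaperones of the endoplasmic reticulum in the same list were not called. Of 32 genes of the unfolded protein and amino acid response 12 fell and none rose, with a median of -0.17. Slc7a11, the cystine importer, fell 4.65-fold, from 21.9, 15.2, 19.9 and 19.6 CPM to 2.97, 3.46, 5.11 and 4.64 CPM (log2 fold change -2.22, SE 0.25, adjusted p = 2.59e-09, edgeR's quasi-likelihood test). Trib3, a pseudokinase induced by ATF4, fell 3.79-fold, from 11.7, 19.8, 21.5 and 23.9 CPM to 3.86, 5.01, 5.85 and 5.41 CPM. No library of Slc7a11 or Trib3 at 20 h reached the lowest at 3 h. Phgdh, the first enzyme of serine synthesis, fell by 1.77, Asns, asparagine synthetase, by 1.36, Ddit3, the stress factor CHOP, by 1.15 and Atf4 itself by 0.76. Xbp1, a factor of the endoplasmic reticulum arm, fell by 0.34. Hspa5, the main chaperone of the endoplasmic reticulum, was at -0.16 (adjusted p = 0.260) and Hsp90b1 at 0.06 (adjusted p = 0.822, both edgeR). Without the 3 libraries that stand apart 8 of the 32 were called, and in the edgeR fit of these 8 libraries alone 4 of the 27 tested there.

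The promoters of Slc7a11 and Asns are shown for the element that C/EBP and ATF4 share in amino acid response genes, searched as TGATGNAA on both strands and set in capitals. Both stretches are on the minus strand and are the 120 bases before the start in RefSeq on GRCm38.p6, at chr3:50443614-50443733 for Slc7a11, which holds the letters in both readings, and at chr6:7693210-7693329 for Asns.
Slc7a11: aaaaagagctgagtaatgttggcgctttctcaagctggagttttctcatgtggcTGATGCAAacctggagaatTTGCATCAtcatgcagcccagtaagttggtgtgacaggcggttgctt
Asns: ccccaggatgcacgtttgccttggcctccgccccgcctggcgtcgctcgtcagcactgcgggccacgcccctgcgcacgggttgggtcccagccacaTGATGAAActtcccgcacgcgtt
The letters were in the windows of 7 of 27 genes of the list (25.9%), among them Trib3 and Nupr1, and of 2.86% of all genes tested with a window.

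Antioxidant genes under NRF2 fell in 11 of 25 cases and rose in none, with a median of -0.29. Sqstm1, the autophagy receptor p62, was 749, 1196, 1272 and 1305 CPM at 3 h and 479, 569.9, 470.3 and 496 CPM at 20 h (log2 fold change -1.17, SE 0.15, adjusted p = 5.33e-08, edgeR). All its 20 h libraries lay below the 3 h libraries, and so did those of Me1, malic enzyme, which fell by 1.00, and Gsta3, a glutathione transferase, which fell by 1.01. Gclm, a subunit of the enzyme that starts glutathione synthesis, fell by 0.90 and Txnrd1, thioredoxin reductase, by 0.59. Hmox1, haem oxygenase, was at 0.15 (adjusted p = 0.614), and Nfe2l2, the gene of NRF2, at 0.21 (adjusted p = 0.299, both edgeR). The number of NRF2 genes called was 10 or 11 without any 1 library and 7 without the 3 that stand apart. The antioxidant response element, searched as TGACNNNGC on both strands, was in the windows of 11 of 22 genes of this list (50.0%) and of 16.9% of all genes tested with a window.

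Sterol synthesis and uptake genes, which SREBP2 controls, fell in 9 of 24 cases and rose in none, with a median of -0.43. Sqle, squalene epoxidase, fell from 29.3, 26.1, 29.6 and 38.9 CPM to 15.5, 16.3, 18.5 and 20.3 CPM (log2 fold change -0.81, SE 0.14, adjusted p = 2.12e-05, edgeR's quasi-likelihood test). All its 20 h libraries lay below the 3 h libraries. Cyp51, which removes a methyl group from lanosterol, fell by 0.87 and Srebf2, the gene of SREBP2, by 0.70. Dhcr7, which acts at the end of the pathway, was at 0.07 (adjusted p = 0.859, edgeR). Without the 3 libraries that stand apart 3 of 24 were called, and in the edgeR fit of these 8 libraries alone 2.

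Adhesion and matrix genes were lower in 5 of 37 cases and higher in 1. Itgb7, an integrin subunit of gut homing, fell by 1.16, Vcan, the proteoglycan versican, by 1.27, Itgal, the integrin CD11a, by 0.83 and Plaur, the urokinase receptor, by 0.73. The fifth was Itga5, a fibronectin receptor subunit, at -0.57, and Timp2, a protease inhibitor, rose by 0.43. When the 3 libraries that stand apart were left out, 0 genes of the list were called higher and 2 lower. Itgb7 was 46.8, 70.6, 67.1 and 78.7 CPM at 3 h and 27.1, 30.8, 28.2 and 31.7 CPM at 20 h, with no overlap.

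Other lists held few changed genes, and their counts stand beside 6.98% of all genes tested that were called in either direction. Among Toll-like receptors and adaptors Tlr1 rose by 0.72 and Cd14 fell, and the other 21 of 23 were not called. Of 30 glycolysis and HIF-1 genes Hk2, hexokinase 2, fell by 0.54 and Ndrg1 by 0.46, and neither was called with the identifier series as a covariate. Bcl2a1b, an anti-apoptotic member of the BCL2 family with near-identical copies, rose by 0.44 and was the only 1 of 14 in that list, and none of 17 p53 targets was called. The call of Bcl2a1b was lost without the 3 libraries that stand apart. Of 25 chaperones Hspa9, the mitochondrial HSP70, fell by 0.71. Of 32 genes of ribosome biogenesis Polr1a, the large subunit of RNA polymerase I, fell by 0.39 and Utp20 by 0.42. Neither was called without the 3 libraries that stand apart or with the identifier series as a covariate. None of 76 cytosolic ribosomal protein genes was called, with a median of 0.20. None of 12 mitochondrial respiratory genes was called, and of 76 nuclear ones Cox6a2, a muscle-type subunit of cytochrome oxidase, fell by 2.48 from under 5 CPM. Acaca, the first enzyme of fatty acid synthesis, fell by 0.39. Its call was lost with the identifier series as a covariate, with upper-quartile scaling and without the 3 libraries that stand apart. It was also lost without 20 h replicate 1 or 2, or 3 h replicate 2 or 4 alone.

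Markers of other cells were mostly low, with S100a9, a neutrophil gene, at up to 31.3 CPM. Ighm, the heavy chain of IgM, rose from 20.1, 24.5, 12.6 and 10.6 CPM to 69.6, 71.4, 38.8 and 34.6 CPM, while Cd79a, which defines B cells, was at most 0.161 CPM in any library. Cd79b, its partner in the B cell receptor, lay between 3.57 and 5.42 CPM at 3 h and between 4.63 and 5.96 CPM at 20 h (adjusted p = 0.502, edgeR). Cd4, which macrophages also transcribe, lay between 0.91 and 1.43 CPM at 3 h and between 2.096 and 2.26 CPM at 20 h (adjusted p = 0.0329, edgeR), and Cd3d, which defines T cells, had 0 counts in all 8 libraries. The summed level of the monocyte markers went from a mean of 633 to 461.5 CPM (here without TMM scaling), a difference of -172 in an exact two-sided permutation test with p = 0.0286, the smallest that 4 against 4 libraries allow. With 12 such values compared the adjusted p was 0.114. The share of mitochondrial counts was 1.32% ± 0.407 (SD, n = 4) at 3 h and 1.43% ± 0.475 (SD, n = 4) at 20 h (p = 0.800, exact permutation test).

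Most of these changes had the same direction in the resting wild type. Over the same interval 883 genes (6.07%) were called in the wild type, 481 higher (3.31%) and 402 lower (2.77%). Of the 1015 genes called in the knockout 1009 (99.4%) had the same sign in the wild type, against 75.2% of all genes tested, and 575 (56.7%) were called there. The correlation of the log2 fold changes across the 1015 genes was 0.952, and across all genes 0.579, as a description, since genes are not independent and the 2 comparisons share the fit. The mitosis genes had a median of 0.80 in the wild type and 1.20 in the knockout, with 30 and 40 of 41 called. The interferon genes had medians of -0.66 and -0.70, the sterol genes -0.37 and -0.43, the NRF2 genes -0.45 and -0.29, and MHC class II genes 0.51 and 0.66.

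No gene passed the test of the difference between the genotypes in change over time, at an adjusted p below 0.01 in edgeR's quasi-likelihood test (0 of 14537). Without adjustment 444 genes (3.05%) had a p below 0.05, and DESeq2 also called 0 genes. The smallest adjusted p was 0.205, for Aqp9, a channel for water and glycerol. Aqp9 was 2.186, 2.26, 2.28 and 3.25 CPM at 3 h and 0.25, 0.19, 0.25 and 0.17 CPM at 20 h in the knockout, and in the wild type it went from between 0.76 and 1.41 CPM to between 0.14 and 0.36 CPM. Its log2 fold change was -3.50 in the knockout and -1.86 in the wild type, a difference of -1.64 (SE 0.34). The next smallest p was that of Phgdh, at -1.77 in the knockout and -0.76 in the wild type, a difference of -1.01 (SE 0.26). The SE of such a difference had a median of 0.235 on the log2 scale over all genes. A p that misses the threshold does not show that the genotypes changed alike.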

How the data were processed

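The authors aligned reads with HISAT2 to mm10 and deposited raw counts per gene from htseq-count, made on the gene's strand with GENCODE M22. The log2 values (VST) were deposited by the authors after the variance-stabilizing transformation of DESeq2, and served only as an alternative. Per the labels, versions were HISAT2 2.1.0 and HTSeq 0.9.1. The 5 entries that name no gene, 22.2% to 25.0% of read pairs, were left out.

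In R 4.3.3, genes passing filterByExpr (min.count 10) in edgeR 4.0.16 were TMM-normalized and fitted as 16 group means over 64 libraries, with 48 residual and 5.06 prior degrees of freedom. CPM are TMM-scaled. p-values were Benjamini-Hochberg adjusted over all genes. Replicates are the 4 libraries of a group, and if they are not separate cultures the p-values measure technical spread only. On simulated data with 200 changed genes among the 14422 that passed the filter there, 40.3% of changes of 0.5 on the log2 scale, 83.6% of 1 and 97.0% of 2 were called, with 3 false calls. Each gene and library was drawn on its own, with the spread per gene of the 64-library fit. The simulation held no libraries that stand apart and no identifier series, so it cannot give the error rates of this comparison.

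Gene positions are from GENCODE M21 on GRCm38 and promoters from RefSeq, matched by symbol. The members and gene lists were chosen with earlier results of these data known. Named are called protein-coding genes without overlap between the times: the 10 largest rises and falls at a mean of at least 5 CPM, up to 4 per list, and Ahr, Ahrr and the Cyp1 genes in any case. Other genes were chosen after their values were seen, and some genes of the lists are not reported here. Promoters shown are from the 2 called list members with the largest change among those whose matches before the start all lie within 120 bases of each other. Genes on chromosome 18 were passed over in this choice, though not in the motif shares.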

Additional observations from a re-analysis of the deposited data

Results flagged for a closer look

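Of 182 sets of 4 libraries looked at, 15 held 1 library far from the other 3 by Dixon's criterion, which chance alone meets in about 1 of 20 sets. Replicate 1 at 20 h was high for 5 genes of dividing cells. Its level was 48.9 CPM for Ccnb2 against 27.6 to 28.7 CPM in the others, 60.9 CPM for Kif23 against 32.7 to 37.5, 39.0 CPM for Knstrn against 23.1 to 25.3, 55.5 CPM for Tk1 against 33.8 to 35.5, and 23.4 CPM for Tyms against 13.4 to 14.6.

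Replicate 2 at 3 h stood apart for 5 genes. It was low for Atp6v0d2, at 19.1 CPM against 34.9 to 36.4. It was high for C1qb at 1629 CPM against 1042 to 1108, Dbp at 9.67 CPM against 5.24 to 5.92, Id3 at 25.4 CPM against 13.5 to 15.4 and Nr1d1 at 2.97 CPM against 1.67 to 1.87.

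The other values lay in different libraries. H2-Q7 was 8.46 CPM in 3 h replicate 1 against 18.8 to 20.0, and Hspa9 was 175 CPM in 20 h replicate 2 against 200.1 to 202. In 20 h replicate 3 Me1 was 6.17 CPM against 4.88 to 4.95 and Slc40a1 was 103 CPM against 88.4 to 90.5. The summed mast cell and basophil markers were 0.0841 CPM without TMM scaling in 3 h replicate 1 against 0.354 to 0.407.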

How the results depend on the processing

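The number of genes called, 1015, was 990 with RLE and 966 with upper-quartile scaling, 741 without a filter, 1021 at a min.count of 50, 1292 with DESeq2 and 1042 with limma on the deposited log2 values. It fell to 157 with edgeR on the 8 libraries alone (DESeq2 679), to 403 with the identifier series as a covariate and to 301 with a fold of at least 2, and was 1812 at an adjusted p below 0.05. Leaving out 1 library at a time gave 664 to 1059 calls, with 664 without 20 h replicate 1, 669 without 3 h replicate 4 and 696 without 3 h replicate 3. Chosen after seeing the data, leaving out the 3 libraries that stand apart gave 307, and summing replicates 3 and 4 gave 645.

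With the replicate number as a block 2088 genes were called, and 317 on the 8 libraries alone, and 36 of 47 interferon genes were called lower with the block. Correlations of the deviations of same-numbered libraries were -0.211, 0.471, 0.232 and 0.232, and not every library correlated best with its own number, so the numbers were not taken to pair the samples. Time by genotype gave 0 calls in 28 of 29 alternatives and 1 with the block (Mmp8, difference 1.14, adjusted p = 0.00907, edgeR).

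Named genes were refitted in 14 of the alternatives, which do not include the fits on the 8 libraries alone or without the 3 that stand apart. In these 14 all 77 called named genes kept their direction, and 60 kept the call in each when the identifier series is left aside. The identifier series as a covariate cost more calls of named genes than any other of these refits. Among those lost were Ndrg1 (adjusted p = 0.130), Slc40a1 (0.132) and Gsta3 (0.0924, all edgeR). Summed B cell markers differed by 49.7 CPM without TMM scaling, and by 1.22 on protein-coding counts alone, which leave out Ighm (p = 0.0857, exact permutation test). The cause of these shifts was not tested. With 4 libraries a group, changes of 0.5 on the log2 scale were often missed on simulated data.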
